A study of Mus musculus with 9 samples.

Results

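The interferon-inducible GTPases examined here are 10 listed mouse genes of 2 families. Gbp2, Gbp3, Gbp4, Gbp6 and Gbp7 encode guanylate-binding proteins (GBPs), and Tgtp1, Igtp, Iigp1, Irgm1 and Irgm2 encode immunity-related GTPases (IRGs). They were found by their symbols in the platform annotation, and each annotated probe was used. Of the 10 genes, 7 were measured, by 10 probes among 20190 detected probes, which named 10096 genes in all. Gbp4, Gbp6 and Iigp1 are not named among the probes used here and were not analysed here. The members were listed by gene family, with earlier results of these data known, so the list has no test of its own.

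The samples were tumour tissue of B16, a transplantable melanoma line of C57/Bl6 mice, taken at day 14 after inoculation from mice labelled 8 weeks old. The PC61 group (4 samples) had received PC61, an antibody against CD25 used to deplete regulatory T cells, and the PBS group (5 samples) had received buffer. Total RNA was labelled and hybridised to Illumina BeadChips, 1 array per sample. The comparison asks how expression in the tumour differs between mice given the antibody and mice given buffer. Nothing in the labels beyond a replicate number says that the samples of a group came from separate mice, and p-values therefore reflect only how much these samples scatter, which may be technical. PC61 is meant to lower the regulatory T cells of the whole mouse and is not confined to the tumour. Its dose, its timing and the extent of depletion were not analysed here.

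Interferon gamma and the type I interferons signal through JAK kinases and STAT transcription factors, and GBP and IRG genes are among the genes they switch on in many mouse cell types. GBPs are large GTPases that coat intracellular bacteria and the vacuoles of parasites and open the way for inflammasome activation. Effector IRGs load onto parasite vacuoles and disrupt them, while the regulatory IRGs Irgm1, Irgm2 and Igtp sit on the membranes of the host and keep the effectors off them. Dimers of STAT family proteins bind sites of the form TTCNNNGAA, and interferon regulatory factors bind sites that hold repeats of the form GAAANNGAAA.

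The promoters of the measured genes are shown because they hold a feature that the choice of members did not use. In the RefSeq promoter table of build GRCm38.p6, which spans 250 bases before to 50 after each start, both forms were searched on both strands. The printed stretch runs from 20 bases before the first match to 20 after the last, or to the start site, on the strand of the gene and 5′ to 3′, with matched bases in capitals. The stretches lie at chr3:142620584-142620633 (+) for Gbp2, chr3:142559979-142560034 (+) for Gbp3, chr3:142530210-142530312 (+) for Gbp7, chr11:48992294-48992354 (-) for Tgtp1, chr11:58199491-58199551 (+) for Igtp, chr11:48871421-48871470 (-) for Irgm1 and chr11:58214882-58214942 (+) for Irgm2.
Gbp2: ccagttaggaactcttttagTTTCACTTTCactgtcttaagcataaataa
Gbp3: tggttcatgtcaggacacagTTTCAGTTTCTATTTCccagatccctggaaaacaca
Gbp7: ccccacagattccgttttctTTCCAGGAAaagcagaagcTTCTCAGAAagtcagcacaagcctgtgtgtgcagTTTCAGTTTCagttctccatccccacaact
Tgtp1: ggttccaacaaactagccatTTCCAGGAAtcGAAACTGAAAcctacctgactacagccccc
Igtp: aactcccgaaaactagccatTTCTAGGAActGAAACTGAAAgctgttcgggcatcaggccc
Irgm1: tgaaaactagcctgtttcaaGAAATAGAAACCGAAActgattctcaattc
Irgm2: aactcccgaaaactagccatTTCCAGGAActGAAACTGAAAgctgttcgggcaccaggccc

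A GAAANNGAAA match was present in all 7 measured genes, in 7 of their 8 listed promoters (the second start of Gbp3 had none), against 3.443% of all 32851 promoters. The TTCNNNGAA form occurred in 4 of the 7 genes, Gbp7, Tgtp1, Igtp and Irgm2, against 2582 of all 27025 genes (8.298% of all promoters). Both forms together were in those 4 genes, against 166 of all 27025 genes (0.4536% of all promoters). The GBP promoters carried the repeat on the opposite strand to the gene, and the IRG promoters on the strand of the gene. Overlapping matches run together in the capitals of Gbp3 and Irgm1. In Tgtp1, Igtp and Irgm2 the TTCNNNGAA match stood 2 bases before the GAAANNGAAA match. Over 30 bases aligned on it, from 10 before its first base, Tgtp1 shared 27 with Igtp and 28 with Irgm2, and Igtp shared 29 with Irgm2. Igtp and Irgm2 also had an identical run of 61 bases within their 300-base promoters, against 20 for Tgtp1 with Irgm2 and 14 for Tgtp1 with Igtp. A match describes letters and shows no bound factor.

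RefSeq places the genes in clusters. Gbp7, Gbp3 and Gbp2 lie in that order on chromosome 3 with Gbp2b between the last pair, and Gbp4 and Gbp6 lie on chromosome 5 on either side of Gbp10. Irgm1 and Tgtp1 lie near each other on chromosome 11 with Tgtp2 and Ifi47, another IRG, beyond them. Igtp and Irgm2 are neighbours at a second site on chromosome 11, and Iigp1 is on chromosome 18. Tgtp2 is a near-identical copy of Tgtp1, and the RefSeq table lists its name as a synonym of Tgtp1 too, so the Tgtp1 probe may measure both genes.

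PC61 replicate 4 stood apart from the other arrays in the melanocyte markers given below, and less so in measures of the whole array. Its raw median intensity was the lowest of the 9 arrays, 21.5 against 24.3 on PBS replicate 2 and up to 41.6 on PBS replicate 1. It had the most detected probes, 20742, against 20506 on PC61 replicate 1. The tissue label was checked with 14 measured melanocyte markers, of 15 listed. Of the 14, 11 were detected (detection p under 0.05) on PC61 replicate 4 and all 14 on each of the other 8 arrays. Relative to the PBS mean, the mean log2 intensity of the list was -1.03, -0.32, -1.57 and -4.31 on PC61 replicates 1 to 4, and it lay between -0.33 and 0.39 on the PBS arrays. Its summed log2 intensity was 100.2 to 156.0 on PC61 arrays and 155.9 to 166.0 on PBS arrays. In bulk tissue, fewer cells of a type and less RNA per cell cannot be told apart.

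All 7 measured GTPase genes had a lower mean in PC61 by each of their 10 probes, where 53.2% of all named genes had a lower mean (52.9% without PC61 replicate 4), and on each of the 4 PC61 arrays each probe lay below its PBS mean. Over the 7 genes, each taken by its brightest probe, the median log2 difference (PC61 minus PBS) was -1.27 with all 9 arrays and -0.64 without PC61 replicate 4. Over all detected probes it was -0.07 in both fits. By family it was -1.27 for the 3 GBPs and -1.50 for the 4 IRGs, and -0.64 and -0.70 without PC61 replicate 4.

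A probe was called at a limma adjusted p (Benjamini-Hochberg over all detected probes) under 0.05. By this rule 1 of the 7 genes fell, Tgtp1, where 10.3% of all named genes were called lower. Without PC61 replicate 4 there were 3, Gbp3, Tgtp1 and Igtp, where 6.83% of all named genes were called lower. The call count was 0 without PBS replicate 1, 4 or 5 or PC61 replicate 3, and 6 without PC61 replicate 2. Calls in either direction over all 20190 detected probes moved as well. They were 3137, 1988 and 1746 without PBS replicate 1, 4 and 5, 1035 without PC61 replicate 3 and 5770 without PC61 replicate 2. Of those calls 40.1%, 37.0%, 38.3%, 36.9% and 50.1%, in that order, were lower in PC61. The share of named genes called lower was not computed for these removals. At an unadjusted p under 0.05, 7 of the 7 genes were lower with 9 arrays, where 20.3% of all named genes were, and 6 of the 7 without PC61 replicate 4, where 18.2% were. In 5 of the 7 genes all PC61 arrays lay below all PBS arrays, which held for 9.96% of all named genes. With 8 arrays it was again 5 of the 7, against 12.9%.

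**Figure D1:**
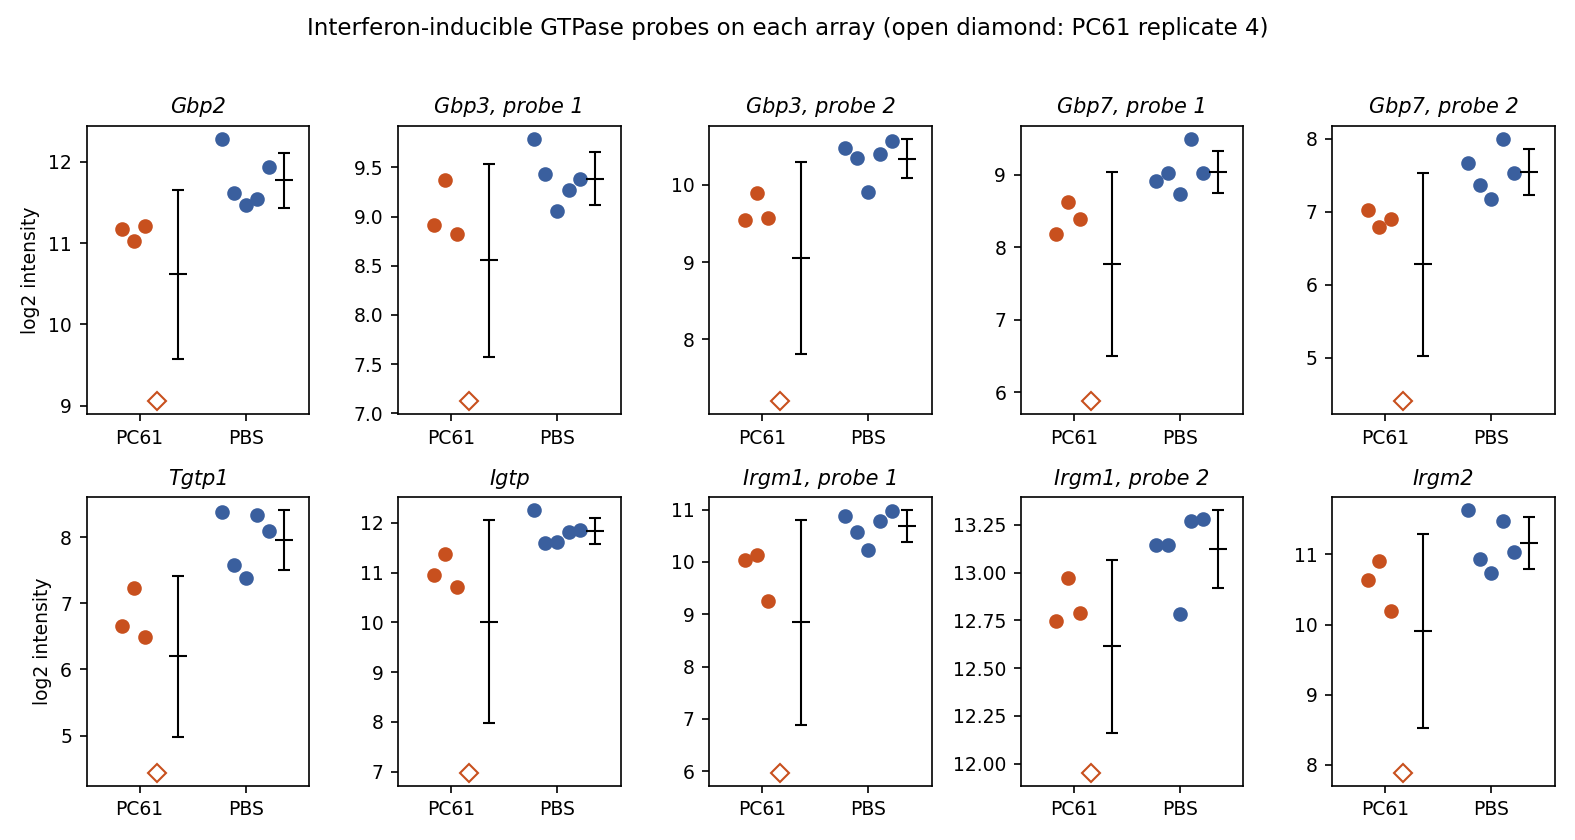
Log2 intensity of each of the 10 member probes on PC61 arrays (left in each panel, open diamond for PC61 replicate 4) and PBS arrays (right), with bars for the group mean and SD over 4 PC61 and 5 PBS arrays. PC61 replicate 4 is the lowest array in every panel, and the groups overlap in Gbp3 probe 1, Irgm1 probe 2 and Irgm2; vertical axes differ between panels and do not start at 0.

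Gbp2 encodes a GBP that gathers on parasite vacuoles and bacteria. On the log2 scale its probe read 11.17, 11.02, 11.21 and 9.06 on PC61 replicates 1 to 4, against 12.28, 11.62, 11.47, 11.55 and 11.93 on PBS replicates 1 to 5. All PC61 arrays were below all PBS arrays, and the first 3 PC61 arrays lay within 0.2 of each other. The means were 10.61 ± 1.04 (SD, n = 4) in PC61 and 11.77 ± 0.34 (SD, n = 5) in PBS. The difference of -1.15 ± 0.40 (SE, 95% interval -2.03 to -0.28) did not pass (limma adjusted p = 0.0620). Without PC61 replicate 4 it was -0.64 ± 0.21 (adjusted p = 0.0646).

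Gbp3, its neighbour in the chromosome 3 cluster, had 2 probes. Probe 2, which stands for the gene in the counts, read 9.54, 9.90, 9.57 and 7.20 on PC61 replicates 1 to 4, against 10.48, 10.35, 9.90 and 10.40 on PBS replicates 1 to 4 and 10.56 on PBS replicate 5. The groups touched without crossing, PC61 replicate 2 lying just below PBS replicate 3. Its difference was -1.29 ± 0.46 (SE, adjusted p = 0.0651). Without PC61 replicate 4 it fell by 0.67 ± 0.20 (adjusted p = 0.0448). Probe 1 read 8.91, 9.37, 8.82 and 7.13 on PC61 arrays and 9.79, 9.43, 9.06, 9.27 and 9.38 on PBS arrays. Here PC61 replicate 2 lay among the PBS arrays, and the difference of -0.83 (adjusted p = 0.136) was -0.35 (adjusted p = 0.270) without PC61 replicate 4. The probes of Gbp3 thus shared a direction but not a call.

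Gbp7, reported in mouse macrophages to help assemble the NADPH oxidase on vacuoles that hold bacteria, also had 2 probes. Probe 1 read 8.18, 8.62, 8.40 and 5.88 on PC61 arrays, against 8.91, 9.03, 8.73, 9.50 and 9.03 on PBS arrays. Probe 2 read 7.02, 6.79, 6.91 and 4.41 on PC61 arrays, against 7.66, 7.36, 7.17, 8.00 and 7.52 on PBS arrays. For both probes all PC61 arrays were below all PBS arrays. Probe 2 was not above background on PC61 replicate 4 by its detection p-value, so its value there is only a bound. The differences were -1.27 ± 0.47 for probe 1 (SE, adjusted p = 0.0741) and -1.26 ± 0.46 for probe 2 (adjusted p = 0.0730). They were -0.64 for each without PC61 replicate 4 (adjusted p = 0.0589 and 0.0586), and neither passed.

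Tgtp1, also known as Irgb6, encodes an effector IRG that loads early onto Toxoplasma vacuoles in mouse cells. Its probe read 6.65, 7.23, 6.49 and 4.44 on PC61 replicates 1 to 4, against 8.39, 7.57, 7.39, 8.33 and 8.09 on PBS replicates 1 to 5. Again no PC61 array reached the PBS range, and PC61 replicate 2 came nearest to it. The means were 6.20 ± 1.22 (SD, n = 4) in PC61 and 7.96 ± 0.45 (SD, n = 5) in PBS. Tgtp1 was 3.37-fold lower in PC61, a log2 difference of -1.75 ± 0.47 (SE, 95% interval -2.78 to -0.72, limma adjusted p = 0.0266).

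By its detection p-value, PC61 replicate 4 gave no reading above background for Tgtp1. Without that array Tgtp1 fell by 1.16 ± 0.27 (adjusted p = 0.0236), which is 2.24-fold. This was the single member at least 2-fold lower without it. Leaving out 1 of 4 other arrays ended the call, with a difference between -1.85 and -1.65. The adjusted p was then 0.0523 when PBS replicate 1 was left out, 0.0610 for PBS replicate 4, 0.0606 for PBS replicate 5 and 0.0615 for PC61 replicate 3. Without the filter on dim probes it was 0.0885.

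Igtp, also named Irgm3, encodes a regulatory IRG of the endoplasmic reticulum. It read 10.96, 11.38, 10.72 and 6.98 on PC61 replicates 1 to 4, against 12.25, 11.60, 11.62, 11.81 and 11.86 on PBS replicates 1 to 5. Every PC61 array was below every PBS array, and PC61 replicate 4 lay furthest below. That array was 28.9-fold below the PBS mean for Igtp. The difference over all arrays was -1.82 ± 0.71 (SE, 95% interval -3.37 to -0.26, adjusted p = 0.0899). Without PC61 replicate 4 it fell by 0.81 ± 0.22 (adjusted p = 0.0330), and the PC61 SD was 0.34 (n = 3) in place of 2.04 (n = 4).

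Irgm1, a regulatory IRG known for resistance of mice to mycobacteria and for effects on lysosomes and autophagy, had 2 probes that differed in size of change. Probe 1 read 10.04, 10.13, 9.24 and 5.98 on PC61 arrays, against 10.87, 10.57, 10.22, 10.78 and 10.98 on PBS arrays. Probe 2, which stands for the gene in the counts, read 12.75, 12.97, 12.79 and 11.95 on PC61 arrays, against 13.14, 13.14, 12.78, 13.27 and 13.28 on PBS arrays. The groups were apart for probe 1 and overlapped for probe 2 through PBS replicate 3. The difference was -1.84 ± 0.69 (SE, adjusted p = 0.0776) for probe 1 and -0.51 ± 0.22 (adjusted p = 0.125) for probe 2. Without PC61 replicate 4 probe 1 fell by 0.88 ± 0.25 (adjusted p = 0.0388), and probe 2 was at -0.29 ± 0.18 (adjusted p = 0.291). The reason for the unequal sizes was not tested.

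Irgm2 encodes a regulatory IRG of the Golgi, which in mouse macrophages restrains the caspase-11 response to bacterial lipopolysaccharide. Its probe read 10.64, 10.91, 10.19 and 7.89 on PC61 arrays, against 11.63, 10.94, 10.73, 11.47 and 11.04 on PBS arrays. PC61 replicate 2 lay above PBS replicate 3, so the groups overlapped. The difference of -1.25 ± 0.51 (SE, adjusted p = 0.100) was -0.58 ± 0.25 (adjusted p = 0.129) without PC61 replicate 4.

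**Figure D2:**
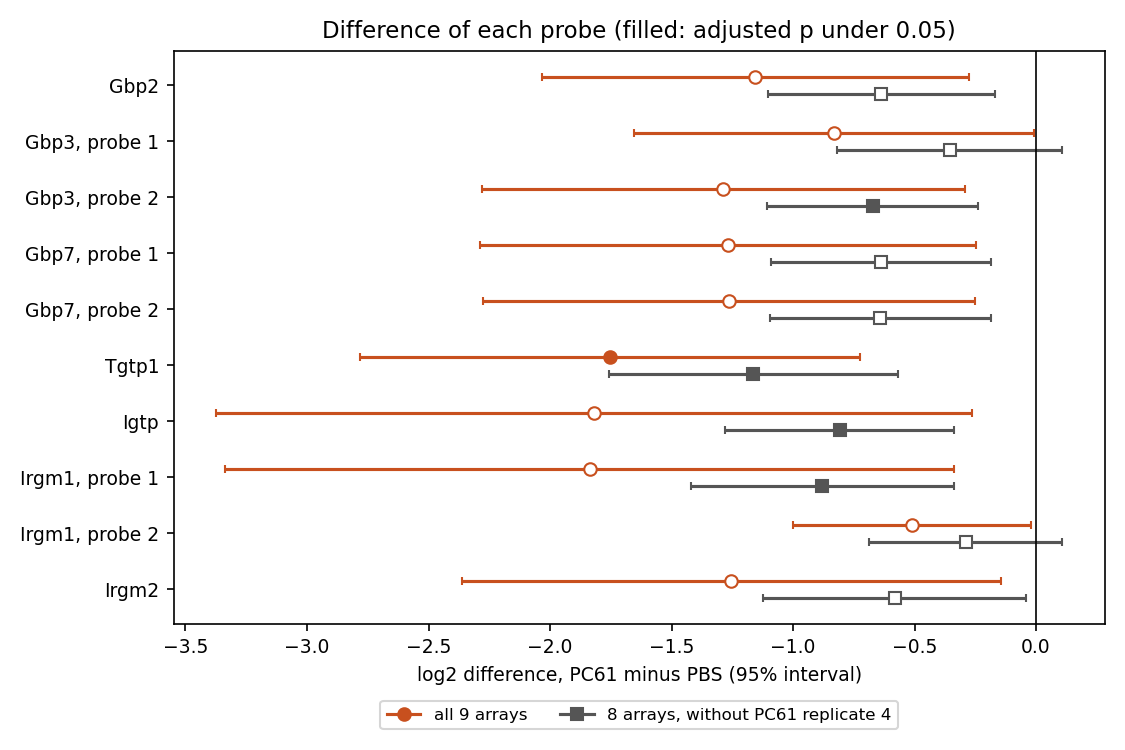
Log2 difference (PC61 minus PBS) of each member probe with its 95% interval from limma, for all 9 arrays (circles) and for the 8 arrays without PC61 replicate 4 (squares); filled symbols passed an adjusted p of 0.05. All points lie below 0, Tgtp1 is filled in both fits, and without PC61 replicate 4 the intervals are narrower and Gbp3 probe 2, Igtp and Irgm1 probe 1 are filled as well.

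Set against the other named genes on the same array, the members took a wide span of places on each PC61 array. On PC61 replicate 1 Tgtp1 was 1.30 below its PBS mean, and 0.971% of the 10096 genes were further below theirs. On PC61 replicate 2 it was 0.72 below, and 4.14% of genes were further below. On PC61 replicate 3 it was 1.47 below with 2.83% further below. For Igtp on PC61 replicate 4, 0.307% of genes were further below their PBS mean. Irgm1, by probe 2, held the highest place among the members on each PC61 array, with 14.6% to 36.1% of genes further below. Its probe 1, relative to its PBS mean, was at -1.44 on PC61 replicate 3 and -4.71 on PC61 replicate 4, where probe 2 was at -0.34 and -1.17.

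The mean over the 7 genes, relative to its PBS mean, was -0.76, -0.45, -0.84 and -3.12 on PC61 replicates 1 to 4, against 0.27, -0.14, -0.37, 0.16 and 0.08 on PBS replicates 1 to 5. All PC61 arrays were thus below all PBS arrays, with PC61 replicate 2 next to PBS replicate 3. The GBPs were at -0.75, -0.54, -0.66 and -3.00 and the IRGs at -0.77, -0.39, -0.97 and -3.20 on PC61 replicates 1 to 4. Both families were lowest on PC61 replicate 4 and least low on PC61 replicate 2. The melanocyte marker mean placed the 4 PC61 arrays in the same order as the member mean, from PC61 replicate 2 down to PC61 replicate 4. The antiviral gene list described below gave that order too, while the GBPs alone had PC61 replicate 3 above PC61 replicate 1. On PBS arrays the orders differed: PBS replicate 1 was the highest for the members (0.27) and among the lowest for the melanocyte markers (-0.33). All 14 measured melanocyte markers had a lower PC61 mean, and 5 were called lower, where 10.3% of all named genes were. Without PC61 replicate 4 there were 7, against 6.83%. Their part in the members' difference was not tested.

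The list means of T cell, macrophage and cytotoxic cell markers lay near or above their PBS mean on the first 3 PC61 arrays. The T cell list (8 of 16 measured) was at 0.67, -0.01, 0.47 and -0.95 on PC61 replicates 1 to 4, against -0.34 to 0.45 on PBS arrays. The macrophage and monocyte list (11 of 14 measured) was at 0.49, 0.02, 0.65 and -0.44, against -0.17 to 0.25 on PBS arrays. By limma 0 genes of either list were called with 9 arrays, and 0 had an unadjusted p under 0.05. On the 8 arrays other than PC61 replicate 4 the T cell gene Cd2 (adjusted p = 0.0493) and the macrophage gene C1qb (adjusted p = 0.0393) were called higher, both named after their values were seen. Both lists were lowest on PC61 replicate 4, with 6 of 8 T cell and 10 of 11 macrophage genes detected there. The cytotoxic and NK cell list (7 of 13 measured) was at 0.41, 0.07, 0.67 and -0.96 on PC61 replicates 1 to 4, with 0 called by limma and 0 at an unadjusted p under 0.05 (2 higher without PC61 replicate 4). Keratinocyte markers (8 of 10 measured genes called higher, and 3 without PC61 replicate 4) and skeletal muscle markers (12 of 12 in both fits) were at 2.79 and 2.81 on PC61 replicate 4, the highest array for both. Across all named genes 14.6% were called higher (10.6% without PC61 replicate 4). The part of these lists in the members' difference was not tested.

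**Figure D3:**
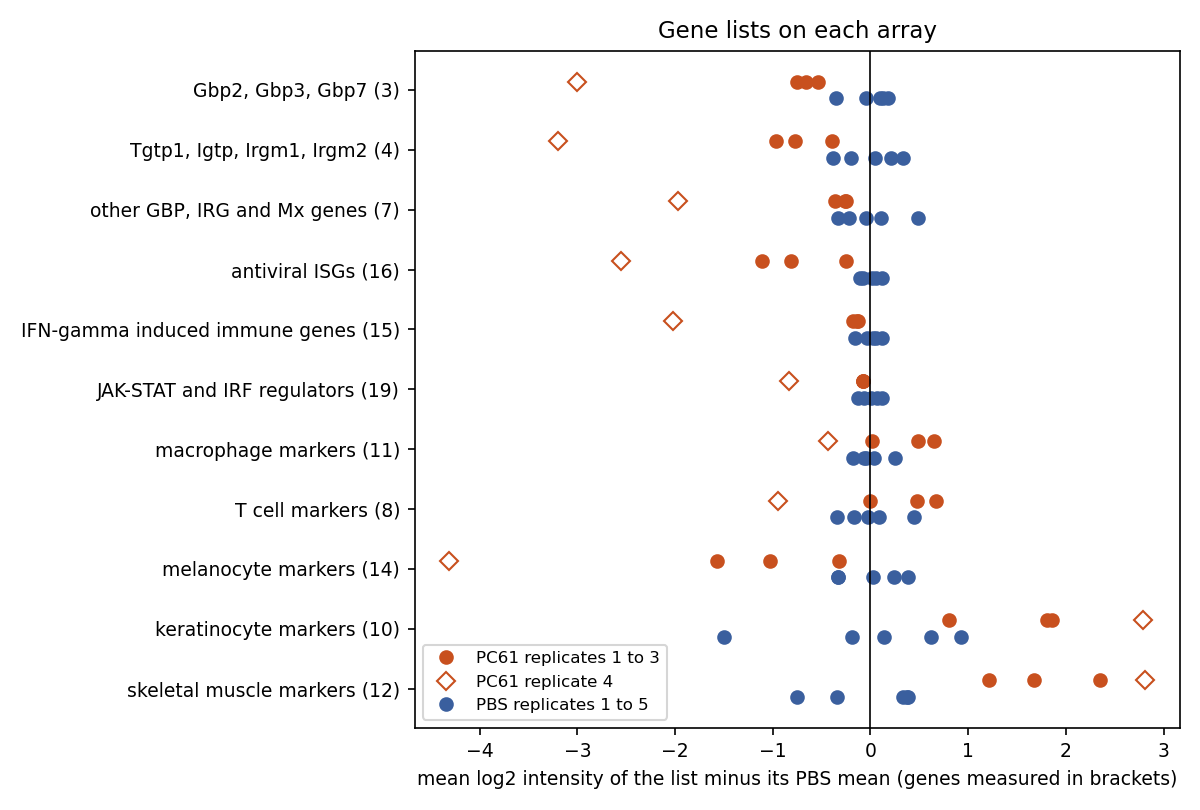
Mean log2 intensity of each gene list on each array minus the list's PBS mean, with PC61 arrays above (open diamond for PC61 replicate 4) and PBS arrays below in each row, and the number of measured genes in brackets. PC61 replicate 4 lies furthest left for the member GBPs at -3.00, the member IRGs at -3.20 and the melanocyte markers at -4.31, and furthest right for the keratinocyte and muscle markers.

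A list of 16 symbols, synonyms among them, held other GBP, IRG and Mx genes, of which 7 were measured. By limma 1 was called lower, where 10.3% of all named genes were, and 0 higher with 9 arrays (1 higher at an unadjusted p under 0.05). A lower PC61 mean was found for 6 of the 7, and for 4 without PC61 replicate 4. Their median difference was -0.77, and -0.55 without PC61 replicate 4. Gbp10, a GBP of the chromosome 5 cluster, fell by 1.03 ± 0.33 (SE, adjusted p = 0.0489), was at -0.67 without PC61 replicate 4, and was not above background on 1 of the 4 PC61 arrays. This call rested on the full set of arrays, since it was lost without any 1 array except PC61 replicate 2 (adjusted p up to 0.0965, and 0.0887 without PC61 replicate 4). Ifi47, the IRG gene Irgd, was at -1.97 ± 0.70 (adjusted p = 0.0666), and without PC61 replicate 4 it fell by 0.99 ± 0.25 (adjusted p = 0.0288). Mx2, a dynamin-like antiviral GTPase, was at -0.77 ± 0.30 (adjusted p = 0.0858).

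A list of 13 genes upstream of the members held interferons, receptor chains and the interleukin genes Il12a, Il12b and Il18. Of these 7 were measured, with a median of 0.05 (0.27 without PC61 replicate 4, the value of Il18). Ifng was the only interferon measured, and Il18 is also counted among the inflammasome genes below. By limma 1 was called lower and 1 higher, where 10.3% and 14.6% of all named genes were. Il10rb, a receptor chain shared by interleukin-10 and the interferon lambdas, fell by 1.47 ± 0.35 (SE, adjusted p = 0.0186). Its call was lost without PC61 replicate 3 (adjusted p = 0.0565) and in no other removal of 1 array. Ifnlr1, the other chain of the lambda receptor, rose by 0.73 ± 0.24 (adjusted p = 0.0489), a call that held without PC61 replicate 2 only and was at 0.47 (adjusted p = 0.0803) without PC61 replicate 4. Ifngr1, the interferon gamma receptor chain that binds the ligand, was at 0.58 ± 0.26 (adjusted p = 0.136). Ifng, the gene of interferon gamma itself, was named after its values were seen. It was detected on 3 of 4 PC61 and 2 of 5 PBS arrays and differed by 0.05 ± 0.32 (adjusted p = 0.931), and by 0.33 without PC61 replicate 4 (adjusted p = 0.457), near background in both groups.

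Among JAK-STAT and IRF regulators 19 of 20 listed genes were measured, with a median of -0.22 (-0.06 without PC61 replicate 4). By limma 1 was called lower and 0 higher (1 higher at an unadjusted p under 0.05), where 10.3% and 14.6% of all named genes were called. Ptpn2, a phosphatase that turns off JAK and STAT proteins, fell by 0.92 ± 0.25 (SE, adjusted p = 0.0279). Its call was lost without PBS replicate 2, 4 or 5 or PC61 replicate 1 or 3 (adjusted p from 0.0517 to 0.0789). Batf2, an interferon-induced partner of IRF1, was at -1.48 ± 0.63 (adjusted p = 0.116) and at -0.62 without PC61 replicate 4, and Irf5, a factor of macrophage activation, was at 0.58 ± 0.24 (adjusted p = 0.107).

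Of 15 listed genes for conjugation of LC3-type and ubiquitin-like proteins, which bring GBPs and IRGs to vacuoles, 14 were measured. Their median was -0.10 (0.03 without PC61 replicate 4). By limma 0 were called lower (3 at an unadjusted p under 0.05) and 1 higher, where 10.3% and 14.6% of all named genes were called. Map1lc3a, an LC3 gene, rose by 1.30 ± 0.28 (SE, adjusted p = 0.0145) and was called in each of the 9 removals of 1 array. Atg3, the enzyme that joins LC3 to lipid, was at -0.57 ± 0.21 (adjusted p = 0.0765), and Sqstm1, the adaptor p62, at -0.72 ± 0.27 (adjusted p = 0.0777, and -0.46 without PC61 replicate 4). Of 10 listed inflammasome genes 6 were measured and 0 were called by limma (1 of the 6 had an unadjusted p under 0.05 without PC61 replicate 4, and none with 9 arrays). Casp1 (0.41 ± 0.25, adjusted p = 0.257), Il18 (0.28 ± 0.19, adjusted p = 0.300) and Il1b (0.21 ± 0.21, adjusted p = 0.499) had the smallest p-values there. Casp1 was at 0.24 and Il1b at 0.11 without PC61 replicate 4.

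The antiviral list held 22 symbols, with Ddx58 also entered as Rigi, and 16 genes were measured. All 16 had a lower PC61 mean. By limma 7 were called lower and 0 higher (0 higher at an unadjusted p under 0.05 too), where 10.3% of all named genes were called lower. Their median was -1.22, and -0.75 without PC61 replicate 4, when 7 were again called, against 6.83% of all named genes. The count was 2 without PBS replicate 5 or PC61 replicate 3, 4 without PBS replicate 1 or 4 and 14 without PC61 replicate 2. It was 2 without the filter on dim probes. Over all detected probes the calls in either direction moved too, from 1035 without PC61 replicate 3 to 5770 without PC61 replicate 2. Of those calls 36.9% and 50.1% were lower in PC61. Eif2ak2, the RNA-activated kinase PKR, fell by 1.61 ± 0.26 (SE, adjusted p = 0.0125), and Ddx58, the RNA sensor RIG-I, by 0.81 ± 0.19 (adjusted p = 0.0183). Both were called in each removal of 1 array. Cmpk2, a mitochondrial nucleotide kinase, fell by 1.45 ± 0.37 (adjusted p = 0.0228), a call lost without PBS replicate 5 (adjusted p = 0.0558) and also without PC61 replicate 3 (0.0649). A GAAANNGAAA match was found in 10 of the 16 listed genes whose promoters were in the table, against 1079 of all 27025 genes.

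Of immune genes known to be induced by interferon gamma, 17 symbols were listed, with Wars also entered as Wars1, and 15 genes were measured. A lower PC61 mean was found for 13 of them, and the median was -0.55 (-0.20 without PC61 replicate 4). By limma 0 were called lower (4 at an unadjusted p under 0.05) and 1 was called higher, against 10.3% and 14.6% of all named genes, and the counts were the same without PC61 replicate 4 (6.83% and 10.6%). Cd74, the invariant chain of MHC class II, rose by 0.75 ± 0.24 (SE, adjusted p = 0.0461) and by 1.00 ± 0.18 without PC61 replicate 4 (adjusted p = 0.0161). In each of the other 8 removals of 1 array its adjusted p was between 0.0557 and 0.124, and with 75th percentile scaling its difference of 0.53 had an adjusted p of 0.216. Cd274, the gene of PD-L1, was at -1.10 ± 0.36 (adjusted p = 0.0520), and Psmb9, an immunoproteasome subunit, was at -1.35 ± 0.54 (adjusted p = 0.0954). Cd274 was at -0.67 (adjusted p = 0.0740) and Psmb9 at -0.60 (adjusted p = 0.0643) without PC61 replicate 4. A GAAANNGAAA match was found in 2 of the 11 of these genes whose promoters were in the table, against 1079 of all 27025 genes. Counted in the same way, it was in 3 of 5 other GBP, IRG and Mx genes and 3 of 15 JAK-STAT and IRF regulators. It was in 2 of 12 interferon ligands and receptors, 1 of 12 conjugation factors and 0 of 9 inflammasome genes. Whether a match went with a lower PC61 mean was not tested. Differences between the lists were not tested.

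**Figure D4:**
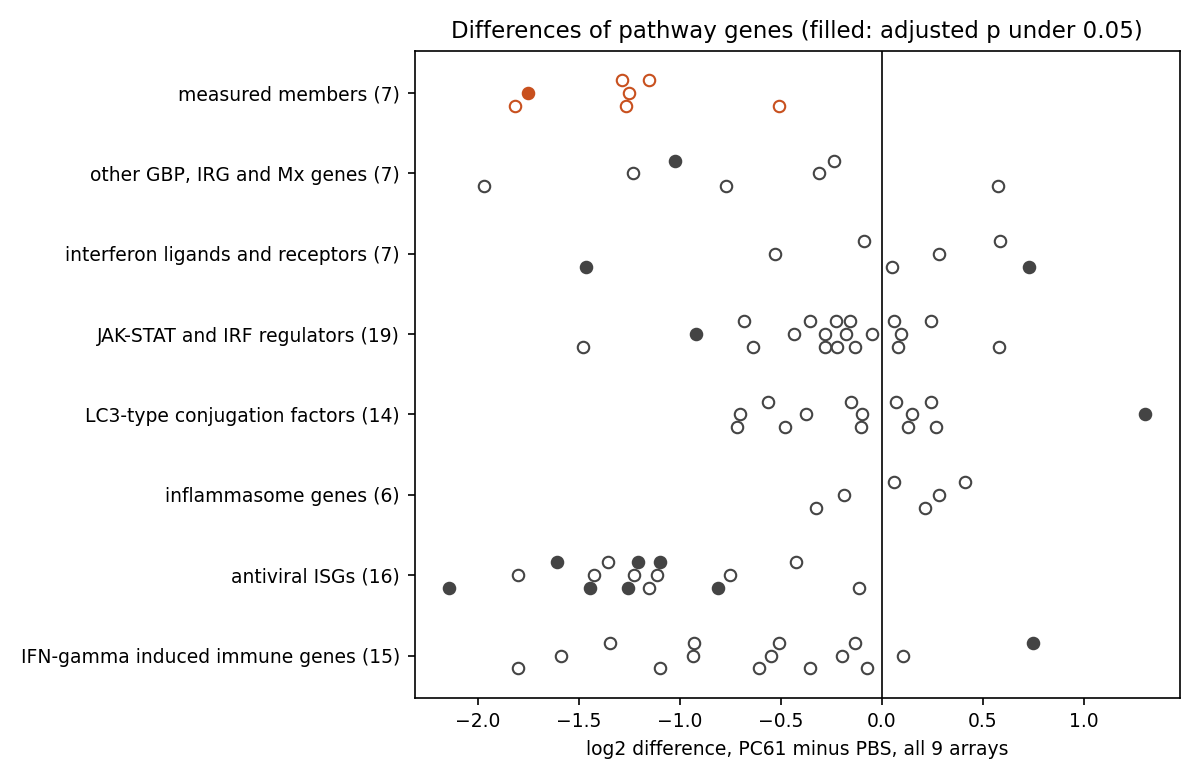
Log2 difference (PC61 minus PBS, 9 arrays) of each measured gene of the member list and of 7 pathway lists, 1 point per gene by its brightest probe, filled where the adjusted p was under 0.05; points are staggered vertically for legibility. All 7 members and all 16 antiviral genes lie below 0, while each of the other pathway lists, including the other GBP, IRG and Mx genes, lies on both sides.

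The members varied together over the arrays. Between the 7 genes, Pearson's r of 21 pairs ran from 0.920 to 0.986 over 9 arrays (median 0.965) and from 0.541 to 0.959 over the 8 arrays without PC61 replicate 4 (median 0.837). These values share arrays and scaling and are a description. The genes most like the member mean over the 9 arrays among 10089 others were Ifi47 (r = 0.998), Timp1, an inhibitor of matrix proteases (r = 0.991), and Xlr4a (r = 0.989). Next were Cyb5a (0.984), Ppm1h (0.983), Psmb9 (0.983), Syt4 (0.983), Snx10 (0.982), Ifit3 (0.981), an antiviral gene, and Gsta2 (0.980). Without PC61 replicate 4, r was 0.990 for Ifi47 and 0.984 for Timp1, still the highest of all, and 0.858 to 0.934 for the other 8. The median r over all genes was 0.05 over 9 arrays, and 472 genes were above 0.9 (267 over 8 arrays).

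In the authors' deposited table, the ratio of PC61 to PBS means was below 1 for all 10 member probes, from 0.355 to 0.721. For Tgtp1 the authors' deposited table gave a ratio of 0.355 with a Benjamini-Hochberg value of 0.0297, the single member under 0.05 there. The values of the other 9 probes in the authors' deposited table ran from 0.0587 for Gbp2 to 0.128 for Gbp3 probe 1.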

How the data were processed

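The authors deposited a table of raw probe intensity with a detection p-value for each array, per the file headers, and a second table of quantile-normalized intensity for 17382 probes. Per the file headers, that table also held the authors' ratio of group means, a test statistic (a score), its p-value and a Benjamini-Hochberg value. For the test, the scanner and background subtraction, details were not given in the sources used here. Quantile normalization computed again from the raw table differed from the deposited intensity values by at most 2.74e-09%, and the value table of the series repeated them.

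The values here start from the 45273 raw probes. A detection value outside 0 to 1 removed 3, which left 45270. The neqc function (limma 3.58.1, R 4.3.3) corrected background by normexp from the detection p-values, with an offset of 16, and quantile normalized the log2 values. The offset shrinks the differences of dim probes, and quantile scaling hides a shift of most genes. The 20190 probes detected (detection p under 0.05) on 4 or more arrays entered 1 two-sided limma fit (lmFit, eBayes), and again without PC61 replicate 4. Arrays detected 18572 to 20742 probes, and their number limits the precision. Names came from the platform annotation: a single symbol for 14942 probes of the authors' table, several for 8, and no symbol here for 2432. A gene was counted by its brightest detected probe.

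Members and gene lists were chosen with earlier results of these data known. Besides the members, the text names the 3 genes of smallest p in each pathway list, any called gene where 5 or fewer were called, and the 10 genes most correlated with the member mean. The fit was tested on simulated arrays. Promoter sequences are RefSeq's, and all 7 measured members had an entry. Correlations among the 36 pairs of arrays ran from 0.779 to 0.979, and none held identical values. Alternatives were other background, normalization, offset and filter settings, array weights, 1 probe per gene, a replicate block and leaving out each array.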

Additional observations from a re-analysis of the deposited data

Results flagged for a closer look

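In 11 of 62 groups of arrays examined (10 member probes and 21 list means, each in PC61 and PBS), the most extreme array lay further from its nearest neighbour, as a share of the group's range, than Dixon's 95% critical value. Chance gives about 1 in 20 for a single group. The 62 groups share the same arrays, and some list means hold member probes, so they are not separate trials. Their count therefore cannot be judged against that rate. In 10 of the 11 the array was PC61 replicate 4. For member probes its share was 0.913 for Gbp2, 0.869 for Gbp3 probe 2, 0.840 for Gbp7 probe 1, 0.913 for Gbp7 probe 2 and 0.849 for Igtp. For list means it was 0.856 for the members, 0.913 for the member GBPs, 0.940 for the other GBP, IRG and Mx genes, 0.998 for the JAK-STAT and IRF regulators and 0.973 for the interferon gamma induced immune genes. The remaining case was Irgm1 probe 2 on PBS replicate 3 (0.722), where that array was the lowest of the PBS group. Tgtp1, Irgm2, Gbp3 probe 1 and both Irgm1 probes in PC61 were also lowest on PC61 replicate 4 without passing that value.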

How the results depend on the processing

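All 175 log2 differences of member probes computed under 18 alternatives were below 0. The pathway genes recomputed with them were only those named for a small p or a call, and no difference of these changed sign. Other pathway genes did change sign without PC61 replicate 4, such as Gbp2b from -0.24 to 0.31 and Ubd from -0.38 to 0.33. The median of all detected probes, -0.07 in the reported setting, was -0.12 with the strict filter and 0.00 with cyclic loess, its extremes over the alternatives. The number of member genes called lower, 1 of 7 in the reported setting, was 2 with 75th percentile scaling and 5 with array weights. It was 0 without a filter on dim probes and 0 with a detection p under 0.01 on all 9 arrays, which dropped Tgtp1 and left 6 genes (by limma, 6 had an unadjusted p under 0.05 in each). Leaving out 1 array gave 0 to 6 called member genes, and 4 to 7 at an unadjusted p under 0.05 where 0 were called. Tgtp1 passed in 11 of the 17 alternatives that measured it (adjusted p from 0.00405 to 0.126). The member median of -1.27 was -0.84 with array weights and -1.57 to -0.64 when 1 array was left out. Of all detected probes 4055 were called, and 1802 without the filter, 2687 with 1 probe per gene, 2808 with the strict filter, 6305 with array weights and 1035 to 5770 when 1 array was left out. Of the called probes 46.4% were lower in PC61, and 35.8% with cyclic loess, where Tgtp1 was again the single member called. The replicate number as a block (4 pairs, PBS replicate 5 without a partner) gave 0 called probes by limma (5360 at an unadjusted p under 0.05), 0 called member genes (4 unadjusted) and a member median of -1.27. Deviations of arrays with the same number correlated at -0.29 to 0.04, so the numbers share no pairing that can be seen. The slide as a block was not run because the files name no slides. The strict filter also dropped Gbp10 and Ptpn2, and other settings ended calls of named genes. Without the filter these were Tgtp1 (adjusted p = 0.0885), Gbp10 (0.130), Il10rb (0.0593), Ifnlr1 (0.0957), Ptpn2 (0.0657), Cmpk2 (0.0723) and Cd74 (0.0916). With 75th percentile scaling they were Ifnlr1 (0.0513) and Cd74 (0.216), with cyclic loess Gbp10 (0.0679), and with an offset of 50 Gbp10 (0.0584) and Ifnlr1 (0.0572). A dim probe such as Tgtp1, not above background on PC61 replicate 4, has only a bound on its difference there.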

Other observations

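Cxcl9 and Cxcl10, chemokine genes induced by interferon gamma, and Irf1 were named after their values were seen, since PC61 replicate 4 lay far from the rest in them. Cxcl9 was at 5.62 on PC61 replicate 4 and at 11.09 to 11.40 on the other PC61 arrays, against 11.17 to 11.77 on PBS arrays. Its difference was -1.59 ± 0.98 with 9 arrays (SE, adjusted p = 0.266) and -0.17 ± 0.20 without that array (adjusted p = 0.587). Cxcl10 was at 5.19 on PC61 replicate 4 and at 9.16 to 10.25 on the other PC61 arrays, against 9.90 to 10.85 on PBS arrays, with a difference of -1.80 ± 0.81 (adjusted p = 0.132), and of -0.68 ± 0.30 without PC61 replicate 4 (adjusted p = 0.138). Irf1, a transcription factor of interferon-induced genes, was at 9.59 on PC61 replicate 4 and at 11.38 to 11.45 on the other PC61 arrays, against 11.45 to 11.95 on PBS arrays. The invariant chain gene Cd74 was at 13.19 on PC61 replicate 4, within the PBS range of 13.09 to 13.40, and at 14.03 to 14.45 on the other PC61 arrays.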
